A study of Mus musculus with 10 samples.

Results

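The genes described here are 9 components and receptors of the complement system, C1qa, C1qb, C1qc, C3, C4b, Cfb, C3ar1, C5ar1 and Serping1, chosen by their symbols from the 51789 rows of the count table. Each symbol matched 1 row, and all 9 genes passed the filter on low counts that left 15232 genes for testing. RNA was sequenced from cardiomyocytes isolated 4 days after myocardial infarction (MI), in 5 libraries of non-transgenic littermates (NLC-MI) and 5 libraries of mice with a cardiomyocyte-specific GRK5 transgene (TgGRK5-MI). All mice had an infarct, so the comparison is between genotypes after MI and holds no sham-operated heart. The study used adult mice of both sexes, and the labels give no age or sex for any library. The labels thus do not show whether the sexes were balanced between the groups.

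Complement is a cascade of plasma and local proteins that tags dead cells and microbes. C1q, built from the chains of C1qa, C1qb and C1qc and made mainly by macrophages, opens the classical pathway, C4b is part of the enzyme that cleaves C3 in that pathway, and Cfb does the same work in the alternative pathway. The fragments C3a and C5a are read by the receptors C3ar1 and C5ar1 on myeloid cells, and Serping1, the C1 inhibitor, blocks the first proteases. Dying myocardium activates the cascade, and macrophages and neutrophils enter the infarct in its first days.

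None of the 9 genes passed the test between TgGRK5-MI and NLC-MI, while their levels varied 3.07-fold to 6.945-fold from library to library. The 9 fitted log2 fold changes were all above 0, with a median of 0.24, but every 95% interval included 0. From library to library C1qa, C1qb and C1qc moved with the level of macrophage markers, and C3, C4b and Cfb moved with each other. These sets were not separate over the 10 libraries, since C1qa and C1qc were also correlated with Cfb and C4b. In the 7 libraries above 15000000 counts, r of these cross pairs was lower. Serping1 was correlated with genes of both sets. Fibroblast markers were correlated with 8 of the 9 members, the C1q genes among them, but the share of all genes so correlated was not counted. C5ar1 was correlated with none of the other members after adjustment over the 10 libraries.

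Libraries held between 7968779 and 23381527 counts. The 3 shallowest were NLC-MI replicate 3 (7968779 counts), TgGRK5-MI replicate 4 (9114469 counts) and TgGRK5-MI replicate 3 (12833652 counts), and the other 7 held over 15000000. Grk5 checked the labels, at 46.5 to 73.05 CPM (counts per 1000000 counts of the library) in the 5 NLC-MI libraries against 552 to 1700 CPM in the others (log2 fold change 4.34, adjusted p = 0.000246, edgeR quasi-likelihood test). The labelled cell type was also checked. The 10 cardiomyocyte markers (Myh6, Actc1, Tnnt2 and others) were all measured and summed to 54650 to 137700 CPM, and markers of other cells were present beside them. The 14 macrophage markers summed to 775 to 2382 CPM in the NLC-MI libraries, with 1239 to 2672 CPM in TgGRK5-MI. The 10 fibroblast markers summed to 4212 to 24860 CPM and 4383 to 25700 CPM in the same order. Of the lists for macrophages, fibroblasts, endothelial cells, neutrophils, lymphocytes and smooth muscle, no tested gene differed between the groups at an unadjusted p under 0.05, and none of the listed genes was at 0 in all libraries. Of the cardiomyocyte markers, 1 of 10 was lower in TgGRK5-MI at that threshold. In RNA of a whole cell preparation, fewer cells of a type and less RNA per cell cannot be told apart.

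For the members that moved together, the sequence around the transcription start is shown first, from 250 bases before to 50 bases after the start, as RefSeq gives it on GRCm38.p6. RefSeq windows matched 5 of the 9 members (C1qb, C1qc, C3, C3ar1 and C5ar1), and C1qa, C4b, Cfb and Serping1 had no entry. Shown are the windows of C1qb (chr4:136886151-136886450, minus strand), C1qc (chr4:136892865-136893164, minus strand) and C3 (chr17:57228087-57228386, minus strand). These windows do not describe C1qa, C4b or Cfb. They are written 5′ to 3′ on the strand of the gene. Capitals mark 3 motifs. GAGGAA is a purine-rich ETS core, which in C1qc lies on the other strand and so reads as its reverse complement. TTGCGNAA is a C/EBP type site, and TATAAA has the letters of a TATA box.
C1qb: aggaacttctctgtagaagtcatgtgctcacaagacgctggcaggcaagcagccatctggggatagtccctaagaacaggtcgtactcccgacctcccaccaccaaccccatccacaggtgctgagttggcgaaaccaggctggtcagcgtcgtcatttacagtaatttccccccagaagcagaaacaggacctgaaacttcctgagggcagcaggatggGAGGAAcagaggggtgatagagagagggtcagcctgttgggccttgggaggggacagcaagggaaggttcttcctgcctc
C1qc: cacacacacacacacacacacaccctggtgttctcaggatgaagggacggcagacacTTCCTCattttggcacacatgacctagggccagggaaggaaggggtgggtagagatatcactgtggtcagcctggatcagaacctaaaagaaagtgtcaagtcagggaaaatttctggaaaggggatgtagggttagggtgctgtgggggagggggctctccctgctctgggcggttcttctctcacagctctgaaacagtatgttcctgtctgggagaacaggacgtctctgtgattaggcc
C3: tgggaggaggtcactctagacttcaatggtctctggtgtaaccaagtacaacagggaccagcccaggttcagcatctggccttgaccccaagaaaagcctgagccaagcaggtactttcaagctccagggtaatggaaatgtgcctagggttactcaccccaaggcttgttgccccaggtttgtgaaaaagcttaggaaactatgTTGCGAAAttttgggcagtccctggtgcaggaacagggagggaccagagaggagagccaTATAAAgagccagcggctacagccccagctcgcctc
Both strands were searched for 6 motifs chosen from general knowledge after the sequences had been seen. GAGGAA occurred once in C1qb, at base 221 of the window, and once in C1qc, at base 58. It lies in 28.3% of all 32817 windows, so a match is common. TTGCGNAA occurred in C3 at base 206 and lies in 0.798% of all windows, and TATAAA occurred in C3 at base 265 and lies in 13.6%. The first 250 bases of a window lie before the start, so TATAAA of C3 lies after the annotated start. C3ar1 held TATAAA at base 16, near the far end before the start, and an NF-kB site (1.63% of windows). C5ar1 held none of the 6 motifs. Of the 5 windows none held an interferon response element (3.43% of all windows) or the STAT type motif TTCNNNGAA (8.29%). Motifs did not overlap each other in these windows, and a match describes letters only.

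C1qa, C1qb and C1qc encode the A, B and C chains of C1q and lie side by side on the minus strand of chromosome 4 (GRCm38, GENCODE M21). C1qb (ENSMUSG00000036905) spans chr4:136880129-136886187, C1qc (ENSMUSG00000036896) spans chr4:136889804-136893065 and C1qa (ENSMUSG00000036887) spans chr4:136895917-136898803. C1qb was at 289, 229.9, 117, 122 and 92.1 CPM in NLC-MI replicates 1 to 5, and at 143, 339, 169, 228.5 and 225 CPM in TgGRK5-MI replicates 1 to 5. The groups overlapped, with NLC-MI replicates 1 and 2 as high as most TgGRK5-MI libraries and the 3 remaining NLC-MI libraries below all TgGRK5-MI libraries. C1qb averaged 170.0 ± 85.2 CPM over the NLC-MI libraries and 221 ± 75.4 CPM over the TgGRK5-MI libraries (mean ± SD, n = 5 each). The fit gave a log2 fold change of 0.38 ± 0.33 (SE), which is a fold of 1.30 with a 95% interval of 0.785 to 2.145 (adjusted p = 1, edgeR quasi-likelihood test), and the exact two-sided permutation test of the mean log2 CPM gave p = 0.27.

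C1qa was at 239.8, 201, 52.1, 86.2 and 77.6 CPM in NLC-MI libraries and at 129, 254, 94.3, 86.6 and 169 CPM in TgGRK5-MI, in the same order. The highest NLC-MI library again came close to the highest TgGRK5-MI library, and NLC-MI replicate 3 was the lowest of the 10. C1qc was at 218, 182, 62.9, 85.8 and 66.2 CPM in NLC-MI libraries and at 125, 247, 113.5, 102 and 155 CPM in TgGRK5-MI. Here too TgGRK5-MI replicate 2 was the highest, NLC-MI replicate 3 the lowest, and the groups overlapped. Means of C1qa were 131 ± 83.4 and 146.5 ± 68.4 CPM (SD, n = 5 each), with a fold of 1.11 (95% interval 0.583 to 2.13, edgeR). For C1qc they were 123 ± 71.8 and 148 ± 58.3 CPM, with a fold of 1.21 (95% interval 0.682 to 2.14, edgeR). Neither gene passed the test between the groups (both adjusted p = 1 by edgeR, exact permutation p = 0.571 for C1qa and 0.381 for C1qc).

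C3 is the central component, cleaved by both pathways. It (ENSMUSG00000024164, chr17:57203970-57228136) was at 241, 313, 72.1, 90.2 and 167 CPM in NLC-MI libraries and at 402, 249.8, 121, 165 and 108 CPM in TgGRK5-MI. The highest library was TgGRK5-MI replicate 1, which was not the highest for C1q, and 3 of the 5 NLC-MI libraries were above 3 or more of the 5 TgGRK5-MI libraries. Means were 177 ± 102 and 209 ± 121 CPM (SD, n = 5 each). The fold was 1.18 with a 95% interval of 0.601 to 2.33 (log2 fold change 0.24 ± 0.45 SE, adjusted p = 1 by edgeR, exact permutation p = 0.603).

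C4b and Cfb lie near each other on chromosome 17, in the major histocompatibility region. C4b (ENSMUSG00000073418, chr17:34728380-34743882) was at 37.5, 47.4, 7.59, 25.2 and 26.6 CPM in NLC-MI libraries and at 45.8, 49.1, 16.1, 17.45 and 21.3 CPM in TgGRK5-MI. Cfb (ENSMUSG00000090231, chr17:34856374-34862518), the protease of the alternative pathway, was at 24.7, 29.9, 4.58, 8.59 and 13.0 CPM in NLC-MI libraries and at 28.45, 31.8, 8.78, 12.8 and 12.4 CPM in TgGRK5-MI. For both genes replicates 1 and 2 of each group were the 4 highest libraries, and the groups overlapped over nearly their whole range. C4b had a fold of 1.03 (95% interval 0.527 to 2.03, exact permutation p = 0.865) and Cfb a fold of 1.16 (95% interval 0.552 to 2.46, exact permutation p = 0.564), each with an adjusted p of 1 by edgeR. C4b shares most of its sequence with C4a, a processed transcript in the annotation, whose longest transcript was 96.0% identical to that of C4b over 5378 bases. C4a held 1 to 16 counts per library and 1.28% of the counts of both genes, so reads could be split between them, and the joint level gave the same outcome (29.4 ± 15.1 and 30.3 ± 16.1 CPM, exact permutation p = 0.873, n = 5 each). Cfb shares 2246 exon bases with Gm20547, a readthrough gene on the same strand that held 0 to 72 counts, and their joint level did not pass either (exact permutation p = 0.516).

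C3ar1, the C3a receptor (ENSMUSG00000040552, chr6:122847138-122856161), was at 62.5, 57.6, 54.6, 38.5 and 22.6 CPM in NLC-MI libraries and at 50.2, 81.0, 29.99, 97.6 and 50.6 CPM in TgGRK5-MI. TgGRK5-MI replicates 2 and 4 were above all NLC-MI libraries, and the other 3 TgGRK5-MI libraries lay inside the NLC-MI range. Its group means were 47.1 ± 16.4 and 61.9 ± 27.03 CPM (SD, n = 5 each). C3ar1 had the highest fitted log2 fold change of the 9 genes, 0.39 ± 0.33 (SE), a fold of 1.31 with a 95% interval of 0.794 to 2.17 (adjusted p = 1 by edgeR, exact permutation p = 0.381).

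C5ar1, the C5a receptor of neutrophils and macrophages (ENSMUSG00000049130, chr7:16246743-16259540), was at 27.2, 20.97, 39.4, 26.2 and 10.1 CPM in NLC-MI libraries and at 23.35, 27.2, 27.7, 47.4 and 18.3 CPM in TgGRK5-MI. NLC-MI replicate 3, the lowest library for 5 of the other members, was the second highest here. The fold was 1.16 with a 95% interval of 0.705 to 1.92 (adjusted p = 1 by edgeR, exact permutation p = 0.508). Hc, the gene of C5, from which the ligand C5a is cut, was near 0 in these cells, at 0 to 4 counts per library.

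Serping1, the C1 inhibitor (ENSMUSG00000023224, chr2:84765387-84775444), was at 134, 114, 70.1, 51.7 and 63.0 CPM in NLC-MI libraries and at 115, 159, 80.9, 124.5 and 84.4 CPM in TgGRK5-MI. The lowest 3 libraries were all NLC-MI, but NLC-MI replicates 1 and 2 were above at least 2 of the 5 TgGRK5-MI libraries. Its means were 86.5 ± 35.5 and 113 ± 31.9 CPM (SD, n = 5 each), and the fold of 1.30 had a 95% interval of 0.852 to 1.99, with the smallest exact permutation p of the 9 genes (p = 0.206, adjusted p = 1 by edgeR).

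**Figure D1:**
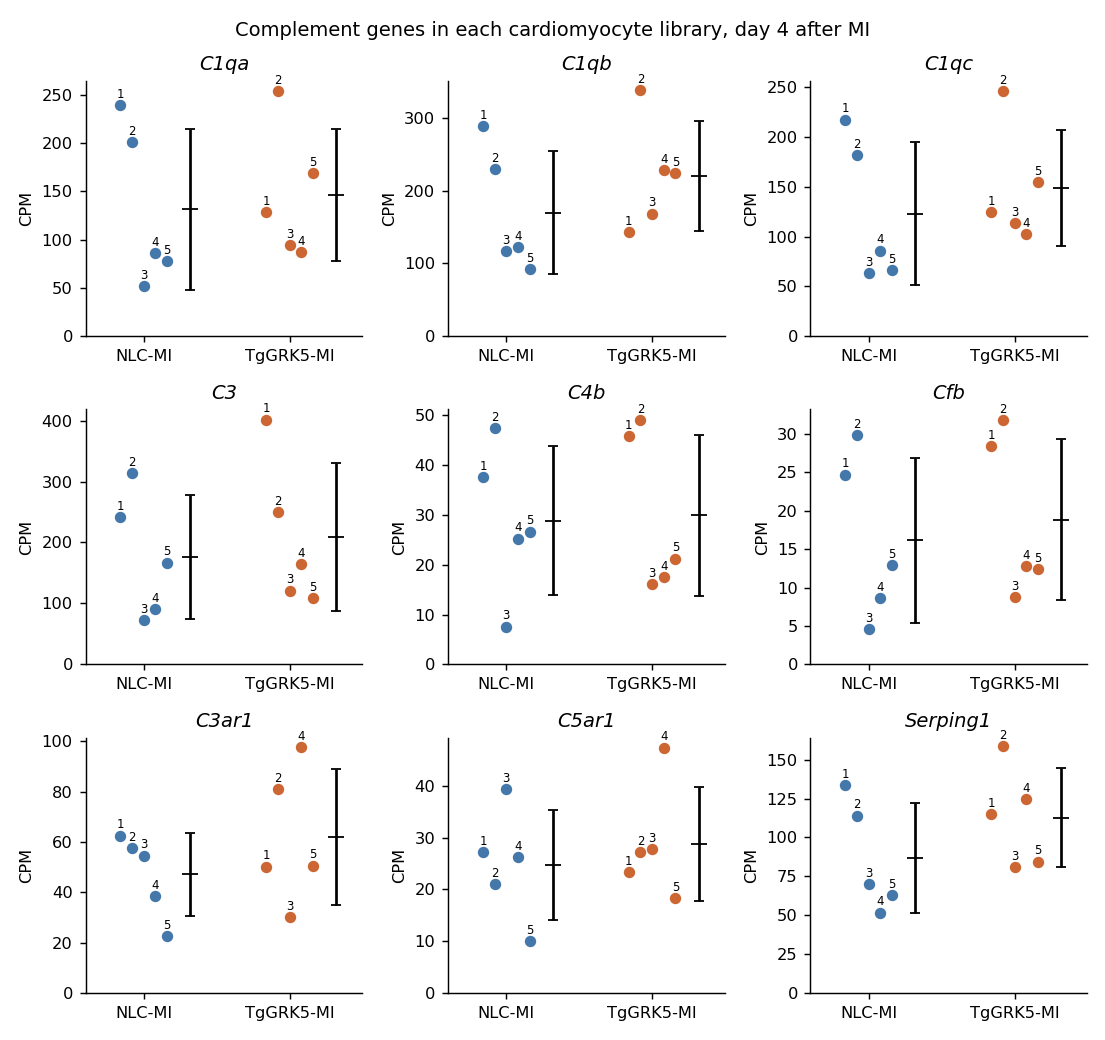
CPM of each complement gene (vertical axis, from 0) in the NLC-MI and TgGRK5-MI libraries, each point a library marked with its replicate number and each bar the mean ± SD of 5 libraries. The groups overlap for all 9 genes, and replicate 2 of TgGRK5-MI is the highest library for C1qa, C1qb, C1qc, C4b, Cfb and Serping1.

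At an adjusted p under 0.10, 0 of the 9 members were called, beside 0.0788% of all 15232 genes tested (12 genes). With an unadjusted p under 0.05 the count was again 0 of 9 in the edgeR fit, beside 3.85% of all genes. DESeq2 and limma-voom with sample quality weights also gave 0 of 9 at that threshold. For 0 of the 9 genes were the 2 groups free of overlap, beside 1.00% of all genes. The exact two-sided permutation test over the placements of 5 and 5 libraries gave p between 0.206 (Serping1) and 0.865 (C4b). The median log2 fold change was 0.24 over the members and 0.00 over all genes (0.0013 before rounding). The macrophage markers were shifted by about as much, with 13 of 14 log2 fold changes above 0 and a median of 0.21. The members move together from library to library, so 9 fold changes above 0 are not 9 separate observations, and 6 of the 9 turned below 0 under at least 1 other fit or without 1 library. C1qb, C3ar1 and Serping1 stayed above 0 in all 21 alternative settings, and none of these reached an unadjusted p under 0.05. The intervals leave room for changes in either direction, and the upper bounds of the fold ran from 1.92 for C5ar1 to 2.46 for Cfb.

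**Figure D2:**
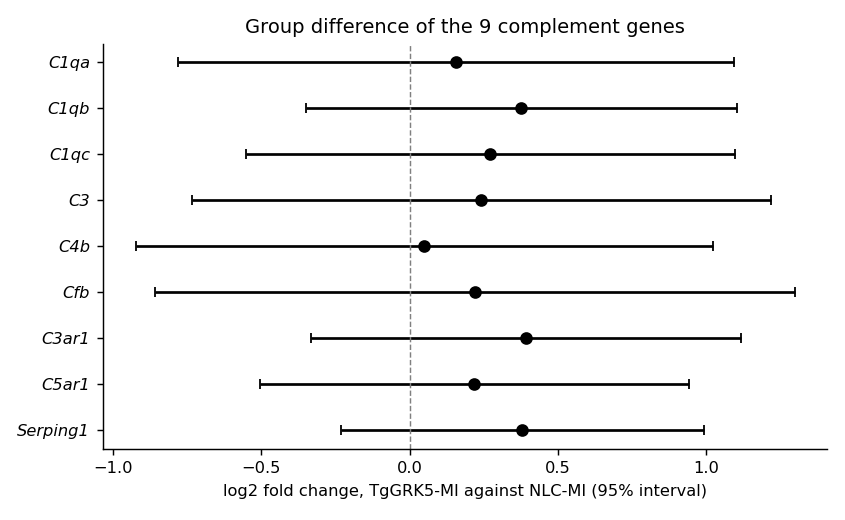
Fitted log2 fold change of each complement gene, TgGRK5-MI against NLC-MI (points), with its 95% interval from the edgeR fit (bars). All 9 points lie above 0, from 0.05 (C4b) to 0.39 (C3ar1), and all 9 intervals cross 0.

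Per kilobase of exon, C1qb was the most abundant member, at a mean level of 179.5 CPM per kb over the 10 libraries. C1qa followed at 134 CPM per kb and C1qc at 70.2 CPM per kb, and by this measure each of these steps held in 10 of 10 libraries (adjusted p = 0.00521, exact sign-flip test over libraries, 8 neighbouring pairs). The order depends on the length used. The exon union was 1931 bases in C1qc and 2325 in Serping1, beside 1203 and 1768 in their longest protein-coding transcripts, and 1040 in C1qa by both. Counts of C1qa per C1qc count ran from 0.827 to 1.17. The order by transcript length was not tested. C1qc was above Serping1 in 9 of 10 libraries (adjusted p = 0.00781, exact sign-flip test). Serping1 was at 42.8 and C3 at 37.5 CPM per kb, and this pair did not differ beyond the spread (Serping1 higher in 7 of 10 libraries, adjusted p = 0.117, exact sign-flip test). C3ar1 stood lower, at 12.7 CPM per kb, and below C3 in 10 of 10 libraries. C5ar1 at 10.4, Cfb at 6.19 and C4b at 5.16 CPM per kb closed the order, and no neighbours from C3ar1 downward differed beyond their spread (adjusted p 0.0859 to 0.117, exact sign-flip tests).

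The members were also more variable within groups than most genes of similar level. The within-group SD of log2 CPM was lowest for Serping1 (0.50) and highest for Cfb (0.96), beside a median of 0.39 over all genes tested. Among the 1000 genes nearest in level, 84.9% had a lower SD than Serping1, and 98.4% had a lower SD than C4b.

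C1qa and C1qc rose and fell together across the 10 libraries, with a Pearson r of 0.97 and a Spearman rho of 1.00 for log2 CPM (permutation p = 1e-05, the smallest the 100000 draws can give, adjusted p = 0.00036 over 36 pairs). C1qb followed both, with r = 0.91 to C1qc (rho = 0.90, permutation adjusted p = 0.00279) and r = 0.83 to C1qa (rho = 0.90, permutation adjusted p = 0.019). C3 and Cfb were correlated with r = 0.94 (rho = 0.94, permutation adjusted p = 0.00162), as were C4b and Cfb with r = 0.94 (rho = 0.92, permutation adjusted p = 0.00216). C3 and C4b gave r = 0.86 (rho = 0.84, permutation adjusted p = 0.0102). Without the 2 libraries farthest from the median of the first gene, r stayed at 0.95, 0.85 and 0.68 within C1q and at 0.93, 0.89 and 0.78 within the second set, in the same order of pairs. Over the 10 libraries, pairs across the 2 sets were as close in part. C1qa to Cfb gave r = 0.85 (rho = 0.76, permutation adjusted p = 0.0152), above C1qa to C1qb. C1qa to C4b (r = 0.80, rho = 0.71), C1qc to Cfb (r = 0.80, rho = 0.76) and C1qc to C4b (r = 0.70, rho = 0.71) also had a permutation adjusted p under 0.05. Without the 2 farthest libraries, r of these cross pairs was 0.80, 0.75, 0.63 and 0.45 in that order. In the 7 libraries above 15000000 counts it was 0.74, 0.57, 0.73 and 0.585, beside 0.98 for C1qa to C1qb. The closeness of the cross pairs thus changed with the libraries used. In all, 17 of the 36 pairs had an adjusted p under 0.05, and none of these was negative. The share among pairs of other genes was not counted. The 17 included Serping1 with C1qa, C1qb, C1qc, C3, Cfb and C3ar1 (r = 0.73 to 0.84, rho = 0.64 to 0.87). They also included C1qb with C3ar1 (r = 0.74, rho = 0.77). C5ar1 was in none of the 17 pairs. Its highest r was to C3ar1 (r = 0.70, rho = 0.50, permutation p = 0.0255, adjusted p = 0.0509), and this value moved with the libraries used. Without the 2 farthest libraries r was 0.00 (0.0006997), and in the 7 libraries above 15000000 counts it was 0.815.

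**Figure D3:**
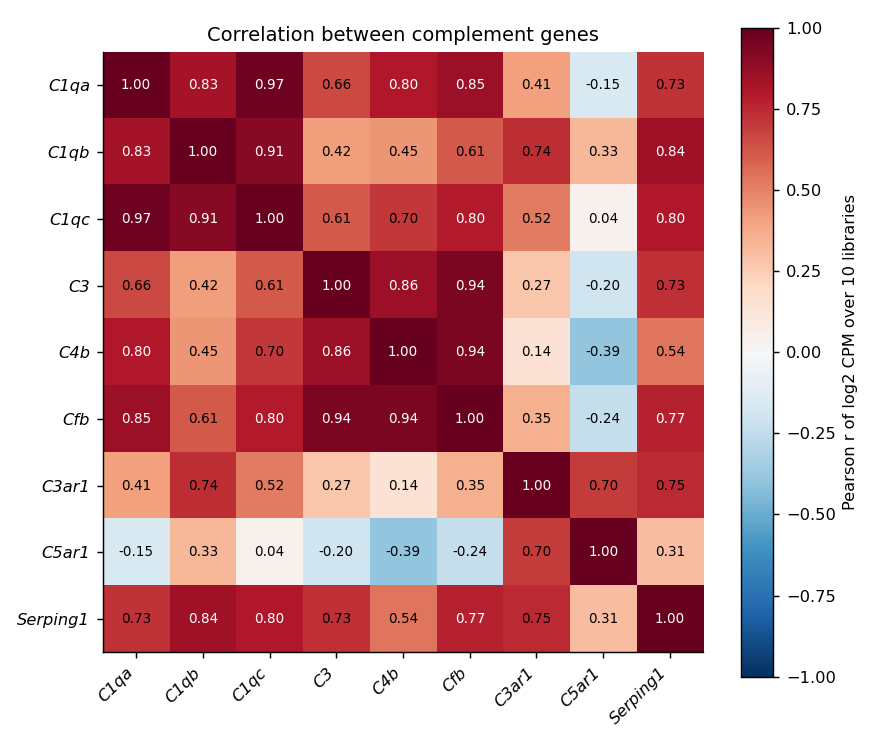
Pearson r of log2 CPM between each pair of complement genes over the 10 libraries (color scale from -1 to 1, both axes list the genes). Values are high among the C1q genes (0.83 to 0.97) and among C3, C4b and Cfb (0.86 to 0.94), some pairs across these sets are as high (C1qa and Cfb, 0.85), and the column of C5ar1 is pale apart from C3ar1 (0.70).

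The same libraries differed in markers of other cells, given here as the mean log2 CPM of each list. C1qb followed the 14 macrophage markers, among which no complement gene was listed, with r = 0.97 (rho = 0.93, permutation p = 2e-05, adjusted p = 0.00054 over 27 relations, n = 10). C1qc gave r = 0.94 (rho = 0.92, permutation adjusted p = 0.000675) and C1qa r = 0.89 (rho = 0.92, permutation adjusted p = 0.00657). Without the 2 farthest libraries, r was 0.94, 0.90 and 0.87 in that order, and within the groups r of C1qb was 0.98 in NLC-MI and 0.92 in TgGRK5-MI. Serping1 (r = 0.81, rho = 0.82) and C3ar1 (r = 0.73, rho = 0.72) also followed the macrophage markers, with permutation adjusted p of 0.0151 and 0.0279. Cfb passed narrowly (r = 0.69, rho = 0.61, permutation adjusted p = 0.0405), but not without the 2 farthest libraries (r = 0.68, permutation p = 0.076) or in the 7 deep libraries (r = 0.59, permutation p = 0.159). C3 (r = 0.49, rho = 0.43, permutation adjusted p = 0.187), C4b (r = 0.58, rho = 0.58, adjusted p = 0.109) and C5ar1 (r = 0.27, rho = 0.02, adjusted p = 0.479) did not.

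With the 10 fibroblast markers (Col1a1, Pdgfra, Dcn and others), 8 of the 9 members were correlated at an adjusted p under 0.05, the exception being C5ar1 (r = 0.19, rho = 0.09, permutation adjusted p = 0.613). Cfb had r = 0.84 (rho = 0.75, permutation adjusted p = 0.0114), C4b r = 0.73 (rho = 0.72, adjusted p = 0.0279) and C3 r = 0.72 (rho = 0.64, adjusted p = 0.0343), and without the 2 farthest libraries these were 0.90, 0.81 and 0.82. Without those libraries C1qb (r = 0.66, permutation p = 0.0844) and C3ar1 (r = 0.53, permutation p = 0.177) no longer passed, which left 6 of the 9 members. In the 7 deep libraries C3 did not pass (r = 0.64, permutation p = 0.133). The C1q genes had r of 0.81 to 0.87 (rho 0.85 to 0.87, permutation adjusted p 0.00932 to 0.0167), so the fibroblast and macrophage levels cannot be separated for them in 10 libraries. With the 10 cardiomyocyte markers, 5 members were correlated negatively, from r = -0.73 for Serping1 to r = -0.87 for C1qb (rho = -0.77 and -0.90, permutation adjusted p = 0.0279 and 0.00682). C3ar1 among them (r = -0.86, rho = -0.83, permutation adjusted p = 0.00932) did not pass without the 2 farthest libraries (r = -0.58, permutation p = 0.13). It had r = -0.96 in the 7 deep libraries (permutation p = 0.00212), which still hold NLC-MI replicate 5, 1 of the farthest. Serping1 did not pass in the 7 deep libraries (r = -0.73, permutation p = 0.0543). In the 7 deep libraries alone C5ar1 had r = 0.75 to fibroblast markers (permutation p = 0.0327, unadjusted) and r = -0.85 to cardiomyocyte markers (permutation p = 0.0323, unadjusted), and r = 0.75 to macrophage markers, which did not pass. The low r of C5ar1 over 10 libraries thus changed with the libraries used. Of the 7, NLC-MI replicate 5 was lowest in C5ar1 (10.1 CPM), macrophage level (4.95) and fibroblast level (7.11), and highest in cardiomyocyte level (13.1). The deep libraries without it were not tested. The share of all genes correlated with each marker list was not counted, so the counts of members have no background beside them. The part of other cells in the group comparison was not tested. Set against the macrophage level of its own library, C1qb did not differ between the groups either (3.13 ± 0.36 in NLC-MI and 3.37 ± 0.422 in TgGRK5-MI as CPM per unit of the markers' geometric mean CPM, exact permutation p = 0.357, n = 5 each).

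**Figure D4:**
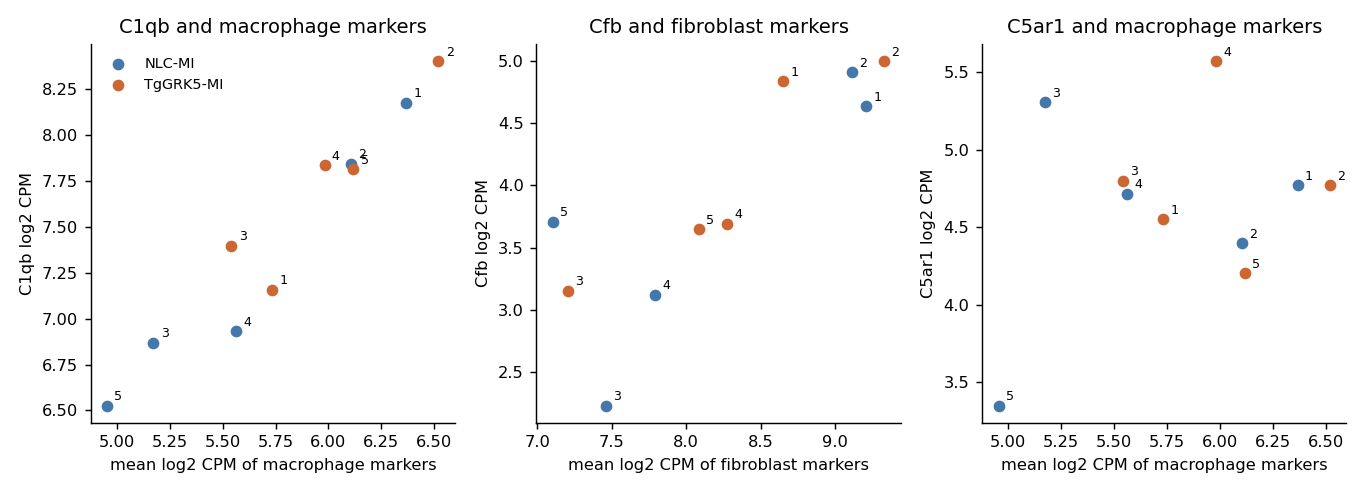
Log2 CPM of C1qb, Cfb and C5ar1 (vertical axes) against the mean log2 CPM of macrophage or fibroblast markers (horizontal axes), each point a library with its replicate number, colored by group. C1qb rises with the macrophage markers (r = 0.97) and Cfb with the fibroblast markers (r = 0.84), and C5ar1 shows no such line over all 10 libraries (r = 0.27).

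The genes most like the C1q genes, by Pearson r with the mean log2 CPM of C1qa, C1qb and C1qc after group means were removed (10 libraries), were Creb3l3 (0.996), Otulinl (0.986), Sash3 (0.986), Tlr2 (0.981), Lyz2 (0.981), Cyba (0.98), Unc93b1 (0.978), Ms4a6b (0.978), Trem2 (0.977) and Ctss (0.977). Of these, Lyz2 and Ctss were on the macrophage list. In all, 267 genes (1.75% of those tested) had r above 0.9, so close likeness to C1q was not rare. For the mean of C3, C4b and Serping1 the leading genes were Gpc3 (0.987), Nkain4 (0.982), C2 (0.982), C1s1 (0.975), Ptgs1 (0.972), Lsr (0.972), C1ra (0.972), Cgn (0.972), Col24a1 (0.971) and Lgals7 (0.971). There, 109 genes (0.716%) were above 0.9. C2, C1s1 and C1ra are complement genes themselves, the proteases of the classical pathway, and Cfb, a member left out of the ranking, had r = 0.99. Of the genes that form the mean, C3 had r = 0.97 with it, C4b 0.93 and Serping1 0.79. The mean thus followed Serping1 less closely than C3 and C4b.

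C4b was the member most closely tied to depth, with r = 0.90 between its log2 CPM and the log2 of the library total (rho = 0.89, permutation p = 0.00016, adjusted p = 0.00224 over 14 relations chosen after the data had been seen). Without the 2 farthest libraries r was 0.86, and 2.05% of all genes had a higher r. C1qa (r = 0.72, rho = 0.65) and Cfb (r = 0.74, rho = 0.72) did not pass after adjustment (both permutation adjusted p = 0.089). Across 15204 genes, which are not independent of each other, r with the library total also moved with the GC content of the longest transcript, from a median of -0.37 in the fifth of genes lowest in GC (under 43.5%) to 0.40 in the fifth highest (over 55.3%). Transcript GC was 59.5% in C1qa, 57.5% in C1qc, 57.4% in C1qb, 55.3% in C4b, 53.3% in C3, 52.9% in Cfb, 52.3% in Serping1, 49.2% in C5ar1 and 43.0% in C3ar1. The members' r with the library total followed GC only in part. C5ar1 and C3ar1, the members lowest in GC, were the only ones with a negative r, while C4b and not C1qa had the highest. Beside the values above, r was 0.58 in C1qc, 0.24 in C1qb, 0.60 in C3, 0.19 in Serping1, -0.58 in C5ar1 and -0.14 in C3ar1. The ratio of C1qa to C1qb counts was 0.446, 0.559 and 0.379 in the 3 shallow libraries (NLC-MI replicate 3, TgGRK5-MI replicates 3 and 4) and 0.706 to 0.901 in the other 7. The low ratios were thus in both groups, whose means of 0.74 ± 0.176 and 0.668 ± 0.202 did not differ (exact permutation p = 0.548, n = 5 each). The part of depth and GC in these values was not tested. In the 7 deep libraries alone, the log2 fold changes of the 9 members were again all above 0, from 0.11 to 0.42, and none passed the test (edgeR).

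**Figure D5:**
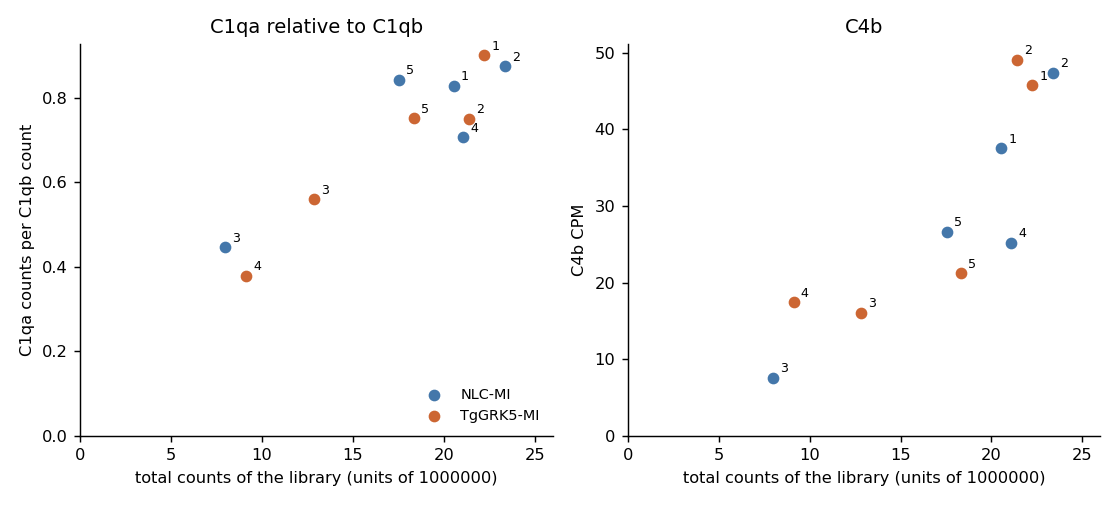
C1qa counts per C1qb count and C4b CPM (vertical axes, from 0) against the total counts of the library (horizontal axes, in units of 1000000), each point a library with its replicate number, colored by group. The 3 libraries under 15000000 counts have C1qa to C1qb ratios of 0.379 to 0.559, below the 0.706 to 0.901 of the others, and C4b CPM rises with the total.

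A wider list of 47 other complement genes held 26 that could be tested. At an unadjusted p under 0.05, 1 of the 26 was higher in TgGRK5-MI and 0 were lower, which is near the 3.85% of all genes tested. None passed after adjustment. The 1 gene was Vsig4, a macrophage receptor for C3 fragments, which averaged 1.45 ± 0.148 and 2.65 ± 1.25 CPM in the NLC-MI and TgGRK5-MI libraries (SD, n = 5 each, log2 fold change 0.83 ± 0.30 SE, adjusted p = 1, edgeR). It held 11 to 48 counts per library, and it lost the unadjusted call with a term for sex-linked expression and in the 7 deep libraries. Fold changes were above 0 for 19 of the 26 genes, with a median of 0.19, beside 0.00 over all genes. Among the regulators, Clu, which holds back the terminal complex, was the most abundant, at 3327 ± 951 and 2554 ± 372 CPM (SD, n = 5 each, NLC-MI first). Cd59a, which blocks the terminal complex on cell surfaces (104 ± 53.2 and 107 ± 44.4 CPM), and Cr1l, a membrane regulator of the C3 step (66.5 ± 19.9 and 69.3 ± 16.5 CPM), differed by less than their spread. Cd93 (221 ± 79.0 and 198 ± 70.7 CPM) and C1qbp (121 ± 33.2 and 114 ± 31.3 CPM), both named for reported binding of C1q, did not pass either. Every adjusted p in the list was 1 (edgeR). Mbl1, Fcnb, C8a and C8b had 0 counts in all 10 libraries, which allows up to 0.121 CPM in the deepest library and 0.393 CPM in the shallowest (3 counts, counting error only).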

How the data were processed

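RNA of cardiomyocytes from 10 mice on day 4 after MI (5 NLC-MI, 5 TgGRK5-MI, 1 library per mouse) was analysed from the whole-number counts per Ensembl gene that the authors deposited, which were not normalized. The submitters' processing notes name Bowtie2, RSEM 1.2.31, DESeq2 and mm10, with no role or order. If RSEM made the counts, they are rounded estimates, in which reads shared by similar genes are divided by a model. Strand settings are not given in the sources used here. Groups were taken from the labels.

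Identifiers were matched to GENCODE M21 on GRCm38 (51596 of 51789). In R 4.3.3 with edgeR 4.0.16, counts were scaled with TMM, filtered with filterByExpr by group (15232 of 28506 genes with a total above 0) and tested with glmQLFit and glmQLFTest, with Benjamini-Hochberg adjustment over all genes tested and thresholds of an adjusted p under 0.10 and of p under 0.05 before adjustment. Levels are given as CPM on TMM-scaled library sizes, or as log2 CPM with a prior count of 2. For each single gene the mean log2 CPM was compared by exact permutation, two-sided. Correlations used 100000 two-sided permutations. Levels per kb divide CPM by the union of exons. The fit was tested on simulated data. Transcripts were compared with blastn 2.17.0, and figures were drawn with matplotlib 3.10.9 in Python 3.11.15.

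The members and lists were chosen with earlier results of these data known. Named genes were all 9 members, genes of the wider list with an unadjusted p under 0.05, its 5 genes highest in CPM, C4a, Cr1l and Hc, the 10 genes most alike to C1q and to the mean of C3, C4b and Serping1, and Grk5. A gene that the rule also takes is not reported here. C2, C1s1 and C1ra are named as alike genes, and Mbl1, Fcnb, C8a and C8b were named after their values were seen. Alternatives were RLE factors, library size alone, DESeq2 1.42.0, limma-voom with sample quality weights (limma 3.58.1), a robust fit, other filters, a replicate block, covariates for sex-linked expression and depth, each library left out, and, added after the data were seen, only the 7 libraries above 15000000 counts. The relations to depth, GC and within-library ratios were also added then. The totals per library limit precision most for Cfb and C4b, with 35 and 58 counts in NLC-MI replicate 3.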

Additional observations from a re-analysis of the deposited data

How the results depend on the processing

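In none of the 21 alternative settings did a member pass an adjusted p under 0.10 or an unadjusted p under 0.05. Of 189 log2 fold changes of members, 18 changed sign. With limma-voom and sample quality weights together these were C1qa (-0.10), C1qc (-0.0114), C3 (-0.0256), C4b (-0.19) and Cfb (-0.0775), and with a term for Xist minus Y-linked expression C1qa (-0.16), C3 (-0.14), C4b (-0.36) and Cfb (-0.26). Without NLC-MI replicate 3 they were C1qa (-0.04), C4b (-0.19) and Cfb (-0.01), without TgGRK5-MI replicate 1 C3 (-0.14) and C4b (-0.16), without TgGRK5-MI replicate 2 C1qa (-0.14), C4b (-0.20) and Cfb (-0.0527), and without TgGRK5-MI replicate 4 C5ar1 (-0.0315). The cause was not tested. With single libraries left out, the log2 fold change ran from -0.14 to 0.47 (C1qa), -0.14 to 0.55 (C3), -0.20 to 0.30 (C4b), -0.05 to 0.56 (Cfb), -0.03 to 0.44 (C5ar1) and 0.22 to 0.58 (Serping1).

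Of all genes tested, 8 were higher and 4 lower at an adjusted p under 0.10. The count of higher genes was 13 with library size alone, 42 with DESeq2, 41 with limma-voom and sample quality weights, 13 with no filter, 4 with at least 10 counts in every library, 3 with the Xist term and 5 in the 7 deep libraries. That of lower genes was 27, 9, 1, 8 and 1 with DESeq2, limma-voom and weights, the Xist term, the library size term and the 7 deep libraries. Single libraries left out gave 2 to 7 higher and 1 to 3 lower genes. In the wider complement list, limma-voom with sample quality weights gave 2 lower genes, the Xist term 0 higher, the library size term 2 higher and the 7 deep libraries 0 higher, and leaving out single libraries gave 1 to 2 higher and 0 to 1 lower.

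With a replicate block, 5 genes were higher and no member was called. Over all genes tested, the correlations of same-numbered libraries were 0.0717, 0.662, 0.381, -0.341 and 0.0848 (mean 0.172, beside -0.0274 for other pairs). Of 5 NLC-MI libraries, 1 correlated best with its own number. For the members the block lowered every SE of the log2 fold change, from 0.49 to 0.19 for Cfb, 0.45 to 0.23 for C4b and 0.33 to 0.32 for C3ar1. The smallest unadjusted p with the block was 0.0745 (Serping1, edgeR). Whether equal numbers pair the samples is not given in the labels. Correlations with markers changed sign only for C5ar1 without the 2 farthest libraries (macrophage -0.0549, fibroblast -0.31, cardiomyocyte 0.11). Depth sets a limit of 3 counts, 0.121 to 0.393 CPM, and with 5 libraries a group the intervals of the members reach a fold of about 2.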

Other observations

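Within a library, the count of C3ar1 per C5ar1 count ran from 1.08 (TgGRK5-MI replicate 3) to 2.98 (TgGRK5-MI replicate 2), and averaged 2.03 ± 0.583 over the NLC-MI libraries against 2.21 ± 0.741 over the others (SD, n = 5 each, exact permutation p = 0.825). C3 per C4b ran from 3.57 (NLC-MI replicate 4) to 9.5 (NLC-MI replicate 3), with means of 6.47 ± 2.1 and 7.18 ± 2.03 (SD, n = 5 each, exact permutation p = 0.579). Serping1 per C3 ran from 0.286 (TgGRK5-MI replicate 1) to 0.973 (NLC-MI replicate 3), so the inhibitor and the central component did not keep 1 ratio across libraries. The ratios were chosen after the data had been seen.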
